A study of Mus musculus with 6 samples.

Results

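Hprt encodes hypoxanthine-guanine phosphoribosyltransferase, an enzyme of purine salvage, and its messenger RNA was far more abundant in cultured lung fibroblasts of Mmp19 knockout mice than in those of wild-type mice. The 10 genes described here are Hprt and 9 other genes of purine salvage, synthesis and breakdown (Aprt, Adk, Ada, Pnp, Gda, Xdh, Ppat, Paics and Gart). Array probes were assigned to them through RefSeq accessions, which gave 14 probes for the 10 genes, out of 55681 probes on the array and 20018 genes that could be named. Hprt was picked because of its difference between these same groups, so its values are given as a description with no test, whereas the other 9 genes were listed by pathway. All 10 genes had a probe flagged well above background on all 6 arrays.

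The knockout group consisted of 3 fibroblast cultures from lungs of Mmp19 knockout mice (Mmp19_KO), and the other group of 3 such cultures from wild-type mice (Mmp19_WT). Mice of both genotypes had been given 0.08 units of bleomycin through the trachea, a drug used to produce lung fibrosis, and were killed on day 21, after which lung fibroblasts were isolated and their cultures incubated for 72 hours. Every animal was labelled female and 11 weeks old. Since the wild-type mice received bleomycin too, no uninjured lung was compared. No strain was named in the labels, and the series text describes independent experiments without saying how many animals entered each culture. Messenger RNA was read with one-colour Agilent arrays, which report a background-subtracted spot brightness, the processed signal.

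Purine nucleotides are made by a chain of reactions that builds inosine monophosphate (IMP) on phosphoribosyl pyrophosphate (PRPP), or are recovered from free bases by salvage enzymes that join a base to PRPP. Hprt recovers hypoxanthine and guanine, Aprt recovers adenine, and adenosine kinase, Adk, recovers adenosine. Breakdown runs the other way: adenosine deaminase, Ada, deaminates adenosine, and purine nucleoside phosphorylase, Pnp, releases bases. Guanine deaminase, Gda, turns guanine into xanthine, and xanthine dehydrogenase, Xdh, makes uric acid. Loss of HPRT in humans causes Lesch-Nyhan disease, in which purine synthesis is raised, and Hprt is also widely used as a reference gene in expression assays.

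The bases before the annotated start are shown for Hprt, the gene with the large difference, and for Aprt, its counterpart in adenine salvage. They are also shown for Ppat and Paics, a pair of synthesis genes on opposite strands whose annotated starts overlap by 277 bases. The Ppat window thus lies past the start of Paics, and the Paics window past the start of Ppat. Each is the 250 bases before the start on the strand of the gene, from RefSeq (GRCm38.p6), at chrX:52987828-52988077 (+) for Hprt, chr8:122576908-122577157 (-) for Aprt, chr5:76951579-76951828 (-) for Ppat and chr5:76951052-76951301 (+) for Paics. Capitals mark matches, on either strand, to the GC box GGGCGG, the E box CACGTG, the TATA box TATAAA and the CCAAT box CCAAT.
Hprt: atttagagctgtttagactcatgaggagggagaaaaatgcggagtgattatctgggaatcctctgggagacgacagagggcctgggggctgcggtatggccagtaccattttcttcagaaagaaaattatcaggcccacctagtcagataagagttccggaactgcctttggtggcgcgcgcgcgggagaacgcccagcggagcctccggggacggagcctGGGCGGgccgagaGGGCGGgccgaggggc
Aprt: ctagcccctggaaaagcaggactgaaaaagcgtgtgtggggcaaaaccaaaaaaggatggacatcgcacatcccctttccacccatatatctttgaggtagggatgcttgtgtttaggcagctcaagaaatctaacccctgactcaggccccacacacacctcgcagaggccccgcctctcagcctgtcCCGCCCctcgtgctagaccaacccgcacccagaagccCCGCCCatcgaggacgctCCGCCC
Ppat: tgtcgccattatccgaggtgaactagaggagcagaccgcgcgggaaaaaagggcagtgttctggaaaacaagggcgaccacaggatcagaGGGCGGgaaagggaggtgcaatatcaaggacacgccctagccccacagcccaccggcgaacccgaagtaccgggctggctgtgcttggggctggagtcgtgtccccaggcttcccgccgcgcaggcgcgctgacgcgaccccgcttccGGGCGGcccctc
Paics: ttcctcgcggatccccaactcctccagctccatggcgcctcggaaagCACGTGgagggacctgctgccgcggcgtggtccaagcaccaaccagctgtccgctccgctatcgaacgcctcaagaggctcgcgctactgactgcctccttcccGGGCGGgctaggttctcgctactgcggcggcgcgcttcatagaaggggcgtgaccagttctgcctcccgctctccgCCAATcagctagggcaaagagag
The Hprt window held 2 GC boxes close to the start, and the Aprt window held 3. GC boxes were present in 9 of the 10 windows that RefSeq gave for 9 members, Xdh not among them and Adk with a pair, and the window without one was that of Gda. This stood against 32.7% of 32851 windows of the same length over all genes. No member window held TATAAA, which occurred in 12.4% of all windows. Paics alone held an E box (6.02% of all windows), and CCAAT occurred in 7 of the 10 member windows (33.9% of all). These matches describe the letters in the windows and carry no measurement of binding.

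The share of spots flagged well above background ran from 43.1% to 52.5% over knockout and from 44.6% to 54.5% over wild-type arrays. In limma 4.64% of 24214 tested probes passed. Wild-type replicate 2 stood apart, with a median correlation of 0.95 with its group, against 0.962 to 0.983 for the other 5 arrays. Mmp19 itself was well above background on 0 of 3 knockout and 3 of 3 wild-type arrays, and so lower in knockout cells, by at least 5.33-fold (limma adjusted p = 0.016). All mice were labelled female. Xist, transcribed from the inactive X chromosome, was above background on 3 knockout arrays and 0 wild-type arrays, and its brighter probe was higher in knockout cells by at least 7.41-fold (adjusted p = 0.00323). The Y-linked Eif2s3y was above background on all 6 arrays and read 2.19, -1.77 and 0.67 in knockout and 2.92, 4.18 and 3.62 in wild-type cells, with no overlap (-3.21 ± 0.94, adjusted p = 0.112). Ddx3y, also Y-linked and above background on all 6, differed by -2.47 ± 0.79 (adjusted p = 0.139). For all 3 of these sex-linked genes the groups did not overlap, as was so for 31.1% of all genes tested, although every mouse carried the same label. What goes with this difference, for the X-linked Hprt too, cannot be told apart from genotype here. Y-linked signal on all 6 arrays is at odds with the female label, and the sex of the cells was not tested. All 10 fibroblast markers were tested, and all except Lum were well above background on all 6 arrays. Of these Col1a1 (1.47 ± 0.26, adjusted p = 0.0307) and Col1a2 (1.25 ± 0.25, adjusted p = 0.0415), chains of type I collagen, rose, and the median of the 10 was 0.89. Of 7 mesothelial markers 5 rose, with a summed scaled signal of 38.0 to 101 on knockout arrays and 2.03 to 16.4 on wild-type arrays. The part of these lists in the results below was not tested. Of 7 epithelial and 4 macrophage and leukocyte markers tested 0 passed in limma, with 1 of each at an unadjusted p under 0.05. The leukocyte marker Ptprc was not above background on all arrays of either group. Cd68, Adgre1 and Mrc1 were not tested either, and of the 8 markers on this list 7 had a named probe. Itgam (means 5.78 in knockout and 5.71 in wild type), Csf1r (3.48 and 2.82) and Marco (-2.35 and -2.50) were well above background on all 6 arrays. Other Csf1r probes were much dimmer, with means of 0.25 in knockout and -0.0037 in wild type for one, and -1.73 and -2.61 for another. Lyz2 was so on 3 knockout arrays and 1 wild-type array. All tested epithelial markers except Krt8 were well above background on all 6 arrays, among them Sftpc (4.95 and 4.97) and Scgb1a1 (2.70 and 2.85). Of the 10 epithelial markers listed, Epcam, Nkx2-1 and Foxj1 were not tested, since they were not above background on all arrays of either group. Of 4 lymphocyte and 6 endothelial markers tested, Cd79b fell and Eng rose. With slide as a block the calls of Col1a1, Col1a2, Cd79b, Eng and the mesothelial Lrrn4 were lost (adjusted p from 0.0528 to 0.0944), which left 4 mesothelial calls, and the epithelial Krt18 passed (2.55, adjusted p = 0.0468). In bulk cultures, fewer cells of a type and less RNA per cell cannot be told apart.

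Hprt had a processed signal of 6075, 22147 and 12123 on knockout replicates 1 to 3, against 111, 123 and 163 on the wild-type replicates. Scaled to the array's 75th percentile on the log2 scale, the scale used from here on, Hprt read 5.46, 6.08 and 5.62 in the knockout and -0.78, -0.79 and -0.84 in the wild type. The wild-type signals were thus low but measurable, since all 3 were well above background, and the groups lay far apart. The group means were 5.72 ± 0.32 in knockout and -0.80 ± 0.03 in wild-type cells (SD, n = 3 each), a log2 difference of 6.52 ± 0.23 (SE), or 91.8-fold. Even the lowest knockout array exceeded the highest wild-type array 75.3-fold. Each slide carried 1 array of each genotype, and the difference within slides was 6.23, 6.87 and 6.46. Ranked by signed log2 difference, Hprt was number 2 of 12470 genes tested. The 3 wild-type values differed by little: only 0.8% of genes tested had a smaller wild-type SD, while 63.8% had a smaller knockout SD than Hprt. With another background correction (normexp), which compresses dim signals, the log2 difference was 5.85, a 57.8-fold one. Hprt was read by a single probe, A_51_P239673.

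**Figure D1:**
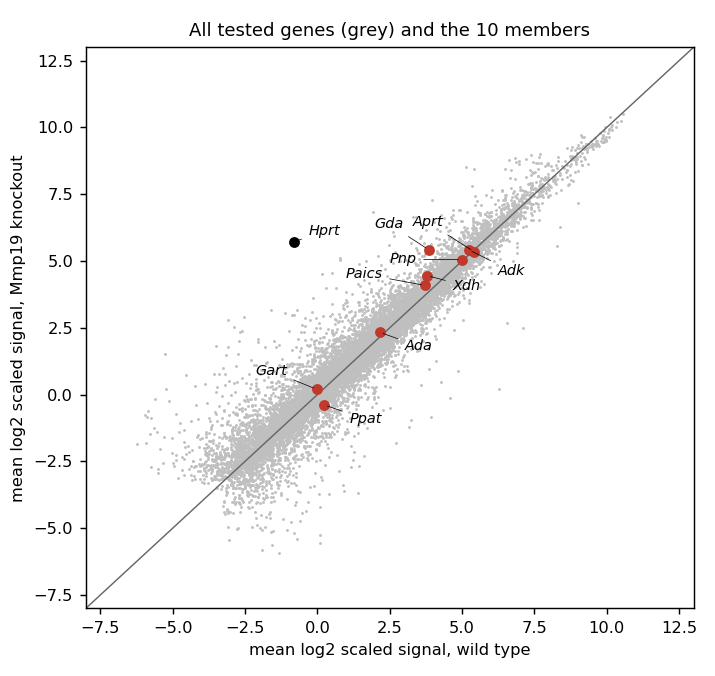
Mean log2 scaled signal in knockout (vertical axis) and wild-type cells (horizontal axis) for all 12470 genes tested, in grey, with Hprt in black and the other 9 members in red; the line marks equal means. Hprt lies far above the line at 5.72 in knockout and -0.80 in wild-type cells, while the other 9 members lie near the line, Gda farthest from it with a difference of 1.58.

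None of the other 9 genes of the purine set passed the test between genotypes. In the limma fit over all probes 0 of 9 had an adjusted p under 0.05, 1 of 9 had an unadjusted p under 0.05 (Gda; 21.8% of all genes did), and the lowest adjusted p was 0.172. Over all genes tested the share called was 4.8%, made up of 3.3% higher and 1.49% lower in the knockout. With slide as a block the member count was also 0, against 1.8% of all genes. Their log2 differences ran from -0.62 (Ppat) to 1.58 (Gda) with a median of 0.20, beside a median of 0.08 over all genes. Knockout and wild-type arrays did not overlap for 2 of the 9 (Gda and Paics), against 31.1% of all genes. The median SE was 0.33, and the 95% interval of the difference stayed within 1 log2 unit of 0 for 4 of the 9 genes. For the other 5 the interval reached beyond 1 log2 unit. These intervals are per gene and not widened for the number of genes.

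**Figure D2:**
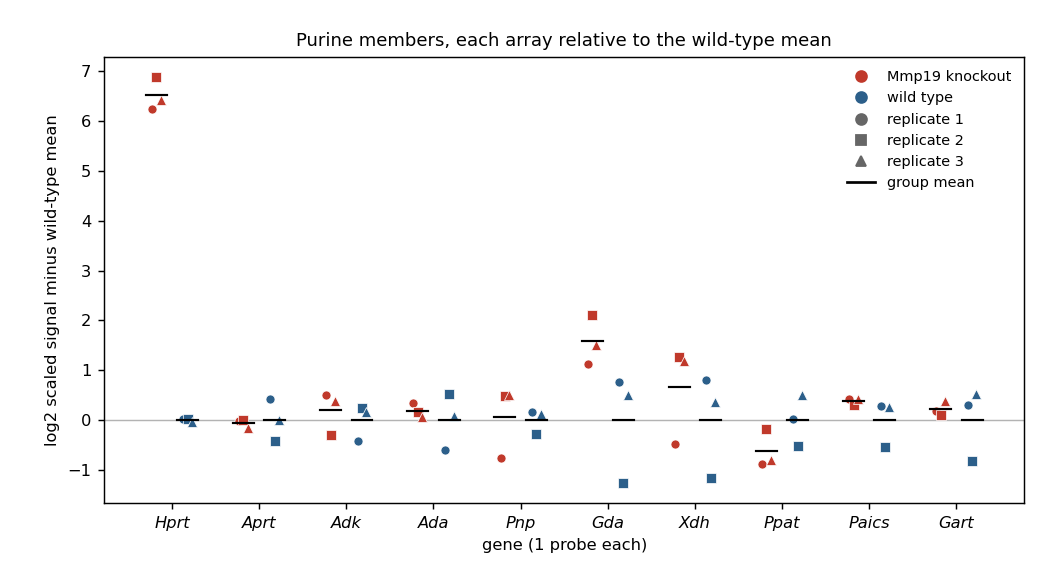
Log2 scaled signal of the 10 members on each array minus the wild-type mean of the gene, with knockout arrays in red to the left and wild-type arrays in blue to the right of each pair, marker shape giving the replicate and black lines the group means. The knockout arrays exceed the wild-type mean of Hprt by over 6 log2 units, whereas knockout and wild-type points of the other 9 genes overlap, except for Gda and Paics.

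The other salvage enzymes did not pass the test, and their brightest probes overlapped between genotypes. Aprt, which acts on adenine as Hprt does on hypoxanthine and guanine, read 5.39, 5.41 and 5.25 in knockout and 5.84, 4.99 and 5.41 in wild-type cells. The knockout values lay inside the wild-type range. The log2 difference was -0.06 ± 0.26 (SE, n = 3 each; limma adjusted p = 0.917), with a 95% interval of -0.68 to 0.55. Adk, the adenosine kinase, read 5.73, 4.93 and 5.61 in knockout and 4.82, 5.47 and 5.40 in wild-type cells, again overlapping, with a difference of 0.20 ± 0.30 (adjusted p = 0.752; interval -0.52 to 0.92). A second, dimmer Adk probe gave 3.05, 2.75 and 3.13 in knockout and 2.13, 2.59 and 2.73 in wild-type cells. Its groups did not overlap, by a narrow margin, and its difference was 0.49 ± 0.24 (adjusted p = 0.297).

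Among breakdown enzymes, 0 of 4 passed, and Gda had the widest difference of the 9 genes. Ada, which deaminates adenosine, read 2.48, 2.31 and 2.22 in knockout and 1.55, 2.67 and 2.24 in wild-type cells, a difference of 0.18 ± 0.31 (limma adjusted p = 0.775; interval -0.55 to 0.92). Pnp, which splits inosine and guanosine, read 4.22, 5.47 and 5.48 in knockout and 5.15, 4.71 and 5.10 in wild-type cells. Knockout replicate 1 was the lowest array for Pnp and the other knockout arrays were the highest, so the difference was 0.07 ± 0.38 (adjusted p = 0.942; interval -0.83 to 0.97). A second Pnp probe was well above background on 0 of 6 arrays and was not tested, and Pnp has a close copy, Pnp2, so which of both a probe reads is uncertain.

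Gda, which converts guanine to xanthine and so removes a base that Hprt could recover, read 4.97, 5.96 and 5.34 in knockout and 4.60, 2.58 and 4.36 in wild-type cells. Every knockout array was above every wild-type array, as was the case in one direction or the other for 31.1% of all genes tested. The difference of 1.58 ± 0.56 did not pass (limma adjusted p = 0.172; interval 0.25 to 2.91), but it passed in 1 alternative, with arrays weighted by their quality (1.12, adjusted p = 0.0423). That alternative called 5068 of 24214 probes, against 1124 in the main fit. The Gda difference depended on wild-type replicate 2, the lowest array, without which it was 0.95, and within slides it was 0.37, 3.38 and 0.98. The second Gda probe differed by 1.01 ± 0.48 (adjusted p = 0.284), and its groups overlapped. Xdh, which acts on the product of Gda, read 3.32, 5.06 and 4.99 in knockout and 4.60, 2.63 and 4.16 in wild-type cells. Both groups spread over more than 1 log2 unit and overlapped, with a difference of 0.66 ± 0.65 (adjusted p = 0.603; interval -0.89 to 2.21) that ran from 0.08 without wild-type replicate 2 to 1.23 without knockout replicate 1.

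None of the 3 synthesis genes passed the test. Ppat, the amidotransferase that takes the first committed step from PRPP, read -0.64, 0.06 and -0.58 in knockout and 0.25, -0.29 and 0.74 in wild-type cells. The difference was -0.62 ± 0.33 (limma adjusted p = 0.335; interval -1.41 to 0.17; -1.05 with adjusted p = 0.0206 under array weights), and the sign was negative on slides 1 and 3 (-0.89 and -1.31) and positive on slide 2 (0.34). Array weights called 5068 of 24214 probes, against 1124 in the main fit. A second Ppat probe was tighter, with -1.05, -0.85 and -1.05 in knockout and -0.52, -0.53 and -0.34 in wild-type cells. Its groups did not overlap, and it differed by -0.52 ± 0.19 (adjusted p = 0.179; interval -0.97 to -0.07). Paics, a bifunctional enzyme of later steps whose start faces that of Ppat, read 4.13, 4.01 and 4.14 in knockout and 3.98, 3.17 and 3.98 in wild-type cells. Its knockout arrays were all slightly higher, and the difference of 0.38 ± 0.27 (adjusted p = 0.464; interval -0.27 to 1.03) was 0.11 without wild-type replicate 2. Gart, a protein with several synthesis activities, read 0.16, 0.08 and 0.36 in knockout and 0.27, -0.84 and 0.49 in wild-type cells, with overlapping groups and a difference of 0.23 ± 0.37 (adjusted p = 0.766; interval -0.64 to 1.09).

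Wild-type replicate 2 was the lowest wild-type array for 7 of 9 genes (Aprt, Pnp, Gda, Xdh, Ppat, Paics and Gart), against 54.5% of all genes tested. It was the lowest of all 6 arrays for 5 of 9, against 36.2% of all genes. The wild-type SD was larger than the knockout SD in 7 of 9 genes, against 59.4% of all genes. Within slides, the median difference of the 9 genes was -0.11 on slide 1, 0.75 on slide 2, which held wild-type replicate 2, and 0.16 on slide 3. Over all genes the medians were -0.01, 0.33 and -0.03 in the same order, so both sets were highest on slide 2. The wild-type values of Hprt, by contrast, had an SD of 0.03.

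**Figure D3:**
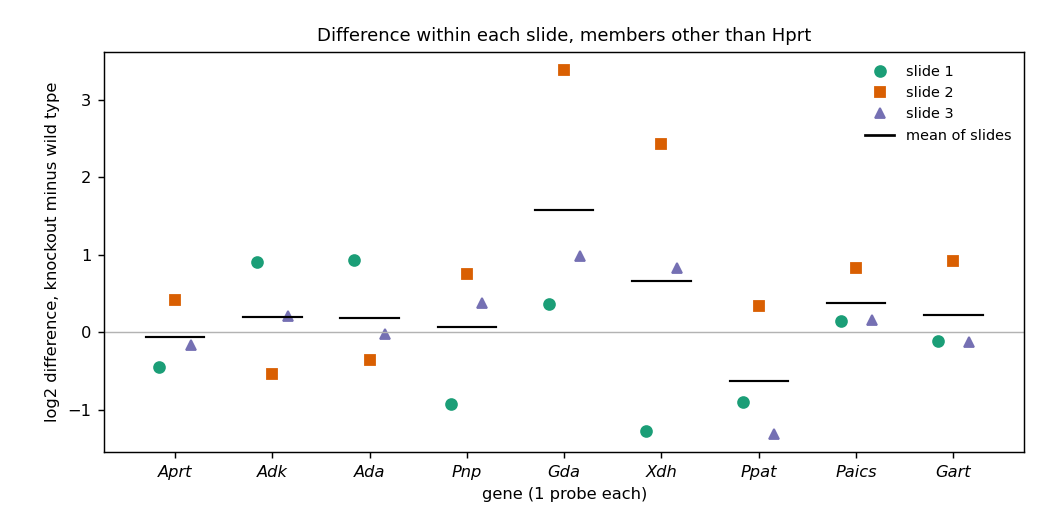
Log2 difference, knockout minus wild type, within each of the 3 slides for the 9 members other than Hprt, with black lines for the mean of the slides. Slide 2 gave the highest difference for 7 of the genes, up to 3.38 for Gda, and the lowest for Adk (-0.54) and Ada (-0.36).

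The wider purine pathway showed 1 call. Of 33 further genes of salvage, synthesis, IMP conversion and breakdown 29 were tested, of which 1 rose and 0 fell in limma, 6 had an unadjusted p under 0.05, and the median difference was -0.02. These counts are 3.45% and 20.7% of the 29, against 4.8% and 21.8% of all genes. The gene that rose was Ak3, an adenylate kinase of the mitochondrial matrix, which read 2.86, 2.88 and 2.77 in knockout and 1.17, 1.80 and 1.73 in wild-type cells (difference 1.27 ± 0.24, adjusted p = 0.0352). That call was lost with slide as a block (0.085), with no filter on dim probes (0.195), with the 75th percentile of detected probes (0.0508) and without any 1 array except wild-type replicate 2 (adjusted p from 0.0721 to 0.155). Apart from Hprt, 38 genes of purine metabolism were thus tested and 1 passed, and the largest difference among them was the 1.58 of Gda.

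Among the 10 genes tested on the list of synthesis from PRPP, 0 passed, 1 had an unadjusted p under 0.05, 5 differences were positive, and the median was -0.0030. Prpsap2, a regulatory partner of PRPP synthetase, read 1.15, 2.03 and 1.27 in knockout and 2.25, 2.29 and 2.09 in wild-type cells (-0.73 ± 0.28, adjusted p = 0.195). The PRPP synthetases Prps1 and Prps2, both encoded on the X chromosome like Hprt, differed by -0.33 ± 0.21 and 0.46 ± 0.33, neither past the threshold. Among 12 genes that interconvert IMP, AMP and GMP or phosphorylate AMP and GMP, Ak3 alone passed, and the median was -0.05. Of 12 breakdown genes tested 0 passed, with 3 at an unadjusted p under 0.05 and a median of 0.27. Pnp2 differed by 1.21 ± 0.40 (adjusted p = 0.152) with 2 of 3 wild-type arrays above background, and the AMP deaminase Ampd2 differed by -0.72 ± 0.24 (0.145), while another Ampd2 probe gave 0.04. Without wild-type replicate 1, Pnp2 passed (0.034). Of 4 salvage genes other than Hprt 0 passed, with 0 at an unadjusted p under 0.05, among them the deoxynucleoside kinases Dck (-0.35 ± 0.55) and Dguok (-0.04 ± 0.18).

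**Figure D4:**
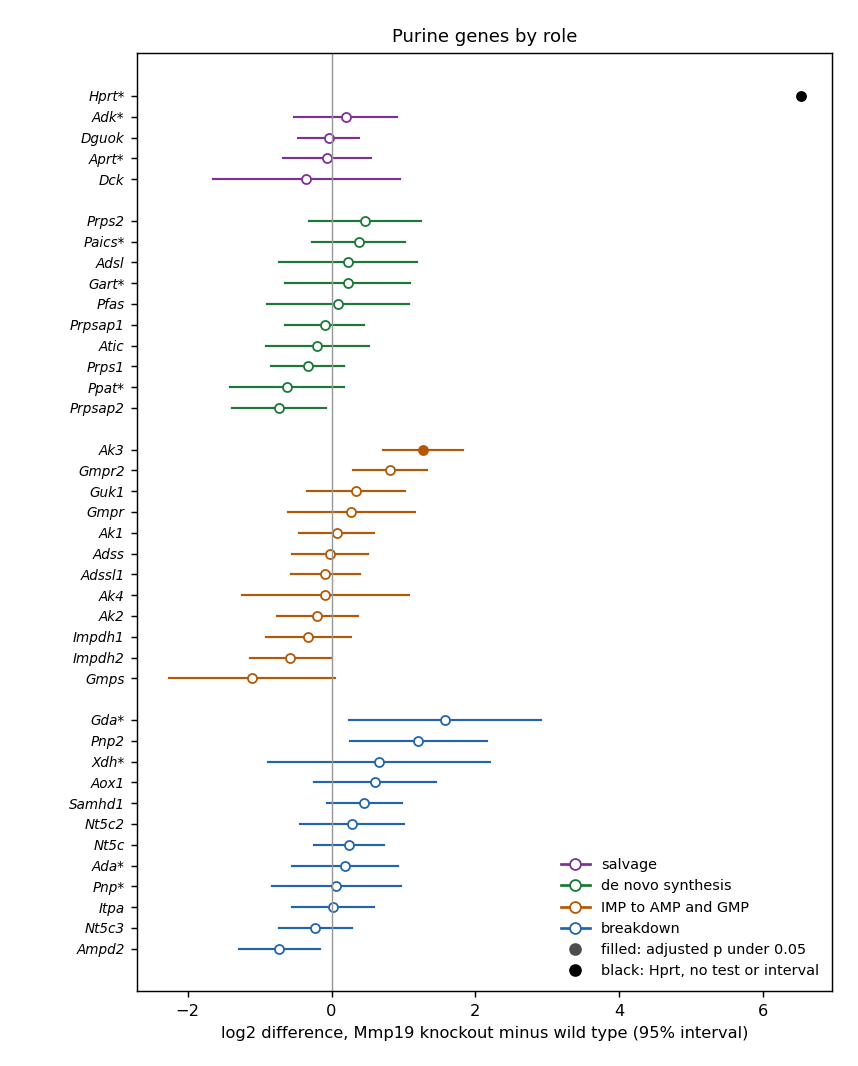
Log2 difference, knockout minus wild type, with its 95% interval for the tested genes of purine metabolism, grouped by role, with members marked by an asterisk. The filled brown point is Ak3 (1.27), the only gene past the adjusted threshold, and the black point is Hprt (6.52), shown without an interval since it was chosen by this difference.

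In adjoining pathways the calls were single genes. Of 72 tested pathway genes that were no members, Ak3 included, 2 rose and 2 fell (5.56%), and 22.2% had an unadjusted p under 0.05. Over all genes these shares were 4.8% and 21.8%. Transcription and growth regulators and reference genes are not among the 72. Of 12 genes of one-carbon metabolism, by which units for purine rings are made or used up, 0 passed, with 2 at an unadjusted p under 0.05. Aldh1l1, a formyltetrahydrofolate dehydrogenase, read 3.04, 3.01 and 3.03 in knockout and 1.66, -0.65 and 1.28 in wild-type cells (2.26 ± 0.57, limma adjusted p = 0.0782), and it passed without wild-type replicate 2 (1.56, 0.0152). Shmt1, a serine hydroxymethyltransferase, differed by -0.48 ± 0.19 (adjusted p = 0.216). Of 13 pyrimidine genes Upp1, uridine phosphorylase, fell. It read -2.94, -2.43 and -2.63 in knockout, with 2 of those arrays well above background, and 2.62, -0.45 and 2.17 in wild-type cells (-4.12 ± 0.76, adjusted p = 0.0346). The Upp1 call was lost with slide as a block (0.0837), with no filter on dim probes (0.108) and without any 1 array except wild-type replicate 2. Of 6 deoxynucleotide genes 0 passed, with 0 at an unadjusted p under 0.05, including the ribonucleotide reductase subunits Rrm2b (0.40 ± 0.23) and Rrm2 (-0.50 ± 0.57) and the deoxynucleotide hydrolase Samhd1 (0.46 ± 0.22). The 10 proliferation markers likewise gave 0 calls and 0 at an unadjusted p under 0.05, with summed scaled signals of 53.7 to 88.4 on knockout arrays and 40.3 to 168 on wild-type arrays. The wild-type arrays were split, however. For each of these markers wild-type replicates 1 and 3 were above every knockout array, and wild-type replicate 2 was below every one. Mcm3, for example, read 1.79, 2.40 and 2.07 in knockout and 3.80, 1.49 and 3.41 in wild-type cells. The absence of calls therefore does not show that the genotypes were alike in these markers.

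Of 5 nucleoside transporters tested Slc29a4, a plasma membrane transporter, fell (-1.89 ± 0.29, limma adjusted p = 0.0226), but it was well above background on 1 knockout array only, its difference was -0.44 with normexp (0.401), and the call was also lost with no filter on dim probes (0.108) and without knockout replicate 1 or 3 or wild-type replicate 1 or 3 (adjusted p from 0.0516 to 0.118). Another of these transporters, Slc29a1, was well above background on all 6 arrays and differed by -1.75 ± 0.37, short of the threshold (limma adjusted p = 0.0508). Of 10 genes of extracellular adenosine handling, Dpp4, a cell-surface peptidase, rose. It was well above background on all 3 knockout arrays and on 0 wild-type arrays, at least 5.31-fold higher (adjusted p = 0.0114), a call lost without knockout replicate 3 or wild-type replicate 3 (0.0594 and 0.0603) and with no filter on dim probes (0.0507). With normexp the Dpp4 difference was 1.06 on the log2 scale, smaller than that bound, and did not pass (0.0561). Of 6 transcription and growth regulators of purine synthesis, Mycn rose, with -0.27, -0.18 and -0.50 in knockout and -4.37, -3.64 and -3.45 in wild-type cells (3.50 ± 0.28, adjusted p = 0.00356). Mycn was well above background on 1 wild-type array, and with normexp its difference was 1.64 and still passed (0.00709). Myc (0.35 ± 0.37) and Atf4 (0.71 ± 0.24, adjusted p = 0.15) did not pass.

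Hprt is often paired with other reference genes, and 12 of those were tested. In limma 0 of 12 passed, with 3 at an unadjusted p under 0.05, against 4.8% and 21.8% of all genes. The differences ran from -0.97 (Tfrc, the transferrin receptor) to 0.88 (Gusb, beta-glucuronidase) with a median of -0.01. A second, dimmer probe of Tfrc did pass (-2.40 ± 0.48, adjusted p = 0.0434). Hprt itself, picked for its difference and not counted among the 12, differed by 6.52.

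None of the genes next to Hprt on the X chromosome passed. Of the 10 nearest tested genes on each side 0 of 20 passed in limma, 7 had an unadjusted p under 0.05 (21.8% of all genes did), the lowest adjusted p was 0.0701, and the groups did not overlap for 9 of 20, against 31.1% of all genes. Their differences ran from -1.03 to 0.90, with a median of 0.02 and 10 of 20 positive. The nearest tested neighbours, chosen for their place, were Phf6, a chromatin protein, at -0.32 ± 0.24 and Fam122b at 0.15 ± 0.33. Over the 420 other X-linked genes tested, 17 rose and 7 fell, with a median of 0.04. These are 5.71% of the X-linked genes, against 4.8% of all genes.

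**Figure D5:**
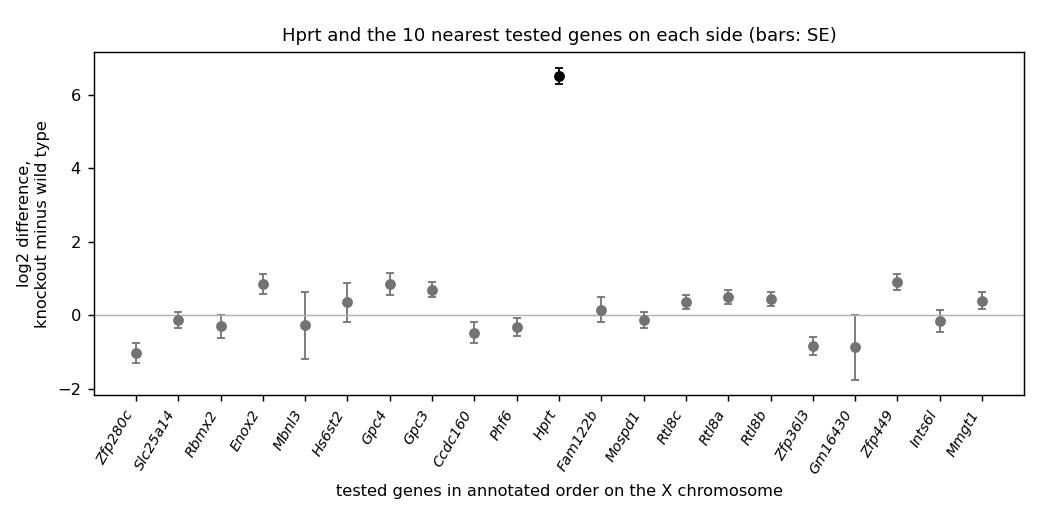
Log2 difference, knockout minus wild type, with SE bars, for Hprt (black) and the 10 nearest tested genes on each side in annotated order along the X chromosome (grey). Hprt stands at 6.52, and the 20 neighbours lie between -1.03 and 0.90.

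The genes whose profile over the 6 arrays was most like that of Hprt by Pearson correlation were Fah (r = 0.9982), Slc36a4 (0.9981), Rxra (0.9978), Rab40b (0.9977) and Lbh (0.9975). These correlations describe 6 arrays in 2 groups, share the scaling of each array, and do not reflect the size of a difference. Fah, fumarylacetoacetate hydrolase of tyrosine breakdown, read 0.52, 0.69 and 0.61 in knockout and -1.02, -0.87 and -0.98 in wild-type cells, a difference of 1.56. Rxra, a retinoid X receptor, differed by 1.26, Slc36a4, an amino acid transporter, by 1.06, Rab40b by 2.34 and Lbh by 2.41. None of the 5 lies on the X chromosome or belongs to the purine set, and the correlation of the other 9 members with Hprt ran from -0.62 to 0.76.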

How the data were processed

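Total RNA of 6 fibroblast cultures (0.5 µg each) was Cy3-labelled for Agilent arrays of 1 colour, per the labels' protocols. The deposited scanner tables hold the processed intensity of each spot, background-subtracted by Agilent Feature Extraction 10.7.3.1, per the file headers. Version 9.1 is named in the submitters' processing notes. A table of log2 values was deposited too, with a normalization and centring that no source here states (column medians 5.51 to 5.76), and served as an alternative. Flags of each spot (well above background, saturated, outlier) are those deposited, per the file headers, and 0 spots were saturated.

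Control and outlier spots were left out and repeated spots averaged on the log2 scale, giving 55681 probes, 259 of them without a value on some array. Each array's 75th percentile was subtracted. The 24214 probes flagged above background throughout a group were tested with limma 3.58.1 in R 4.3.3 (lmFit and eBayes, two-sided, Benjamini-Hochberg over all probes, threshold 0.05). Differences are knockout minus wild type. A fold against a group at background on all its arrays is a bound, set on each array against the lowest signal well above background or the dim probe's signal, whichever was higher. Probes were named by RefSeq accession through an annotation of GRCm38.p6, which named 26413 probes (47.4%). Promoter windows and gene order on the X chromosome follow GRCm38.p6, and no position of a probe was used, since the array design was annotated on mm9. A gene was read by its brightest tested probe. The code was tested on simulated arrays.

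The members and lists were chosen with earlier results of these data known. Named were Mmp19, all members with every probe, up to 4 genes of each list past the threshold (or up to 2 of smallest p), the 5 genes most correlated with Hprt, and neighbours of Hprt past the threshold. Prps1, Prps2, Dguok, Rrm2, Slc29a1, Myc, Atf4, Phf6, Fam122b and the sex-linked genes were added for their role or place. So were the markers that passed and Lum, Ptprc, Cd68, Adgre1, Mrc1, Itgam, Marco, Epcam, Nkx2-1, Foxj1, Krt8, Krt18, Sftpc and Scgb1a1. Each slide held the knockout and wild-type array of 1 replicate number, so slide block and replicate block are the same fit. Same-numbered arrays had deviations with correlations of 0.096, -0.021 and 0.21, so arrays were not treated as pairs. The series text calls the experiments independent but does not say how animals map to cultures. The number of arrays limits precision.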

Additional observations from a re-analysis of the deposited data

How the results depend on the processing

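Of 17 alternatives, array weights alone brought members other than Hprt past the threshold: 2 of 9, Gda (1.12) and Ppat (-1.05); in the other 16 the count stayed 0. That fit called 5068 of 24214 probes, against 1124 (697 higher, 427 lower), and 17 of 72 further pathway genes, against 4. The probe count was 633 with normexp, 650 over probes well above background on all arrays, 109 with no filter, 385 with the replicate block (slide), and 107 to 1716 when 1 array was left out, the ends without knockout replicate 3 and without wild-type replicate 2. The pathway count was 1 over probes well above background on all arrays, 0 with no filter, 2 with the replicate block and 0 to 9 when 1 array was left out (0 without knockout or wild-type replicate 3, 9 without wild-type replicate 2). The block changed no call of a member. Hprt ran from 5.85 (normexp) to 6.65 and was 6.18 in the authors' table. The median of all probes was 0.07, and -0.04 when arrays were scaled to the 75th percentile of probes detected on all arrays, where 608 probes were higher and 563 lower (51.9% higher, against 62.0%).

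Signs turned only where no call was made: Aprt was 0.0041 with normexp, Ada -0.0778 with normexp, and Pnp -0.0468 with quantile normalization, -0.0506 with the detected-probe 75th percentile, -0.0039 with the detected-probe median, -0.17 with normexp and -0.0577 in the authors' table. Gart was -0.0122 with array weights. With 1 array left out, Aprt ran from -0.27 to 0.15, Adk from -0.0087 to 0.44, Ada from -0.12 to 0.44, Pnp from -0.147 to 0.485, Xdh from 0.08 to 1.23, Gart from -0.18 to 0.48 and Dck from -0.961 to 0.0945. The causes were not tested. With 3 arrays a group, the 95% interval reached beyond 1 log2 unit for 5 of the 9 members.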
